A study of Mus musculus with 8 samples.

Results

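The genes described here encode the enzymes that make cholesterol and fatty acids, together with the proteins that sense sterols and control those enzymes. They are 32 genes named by symbol, each traced through the GENCODE annotation to its Ensembl row in the count table, out of 50686 rows in all. Every one of the 32 genes was among the 13644 that passed the filter on low counts. The lowest count of any of them in any library was 87, for Fads2.

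Cholesterol is built from acetyl-CoA through mevalonate, farnesyl diphosphate and squalene, and fatty acids are built from the same precursor by a separate set of enzymes that then lengthen and desaturate the chains. The transcription factors SREBP1 and SREBP2, products of Srebf1 and Srebf2, turn on most of these genes. Scap carries them out of the endoplasmic reticulum when sterols are scarce, and the Insig proteins hold them there when sterols are plentiful. Lymphocytes that grow and divide need both products for new membranes.

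RNA came from thymic ILC2, a class of innate lymphocyte known for secreting type 2 cytokines. The donor mice were C57BL/6 animals transgenic for plck-Id1, and the Id1 protein blocks the E protein transcription factors. The GFP groups carried the empty MIGR1 retroviral vector, and the E47-ER groups carried MIGR1 with GFP and E47, an E protein encoded by Tcf3, joined to an estrogen receptor domain that 4-hydroxytamoxifen switches on. After sorting for GFP and expansion in IL-33, IL-25 and IL-7, both kinds of cells were given 4-hydroxytamoxifen for 4 h or 16 h, and 2 libraries were made of each of the 4 groups. The control groups therefore also held the transgene, the vector, the cytokines and the drug. Since E47-ER cells without the drug were not analysed here, what E47-ER does once active and what set the transduced cells apart beforehand cannot be told apart. Nothing in the labels ties a replicate to its own mouse or culture, and the p-values then cover only library-to-library spread, which may be technical. In bulk RNA, fewer cells with a transcript and less of it per cell cannot be told apart.

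Promoter sequences are shown first, for Mvd and Fads2, on which results below turn, and for Hmgcs1 and Idi1, which hold letters of known control elements. Fads1 is not among the genes with a window. The RefSeq table for GRCm38.p6 gave start sites for 25 of the 32 genes in 33 windows of 300 bases, from 250 bases before to 50 after each start. Searched on both strands, the sterol element TCACNCCAC was present in 3.03% of these windows and 1.24% of 32851 windows of all genes. CCAAT, the letters bound by NF-Y, was present in 63.6% against 37.4%. The E boxes CAGCTG and CAGGTG, which E proteins can bind, were present in 12.1% against 16.3% and in 24.2% against 20.2%. These shares describe letters in a window and were not tested. The 250 bases before the start are printed 5′ to 3′ on the gene's strand in build GRCm38.p6, with capitals for matches of these 4 motifs on either strand (ATTGG is CCAAT on the other strand).
Hmgcs1, chr13:119690101-119690350, plus strand: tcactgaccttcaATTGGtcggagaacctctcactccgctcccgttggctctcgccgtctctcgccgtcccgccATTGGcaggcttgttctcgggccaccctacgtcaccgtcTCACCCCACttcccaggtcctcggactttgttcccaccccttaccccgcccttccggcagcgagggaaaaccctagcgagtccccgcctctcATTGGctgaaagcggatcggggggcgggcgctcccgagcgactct
Idi1, chr13:8885356-8885605, plus strand: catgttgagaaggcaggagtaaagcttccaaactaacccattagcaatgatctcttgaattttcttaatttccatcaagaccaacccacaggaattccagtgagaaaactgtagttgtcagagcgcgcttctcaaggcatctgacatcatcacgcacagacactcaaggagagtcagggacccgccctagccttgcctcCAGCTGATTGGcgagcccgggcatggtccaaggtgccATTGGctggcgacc
Mvd, chr8:122443423-122443672, minus strand: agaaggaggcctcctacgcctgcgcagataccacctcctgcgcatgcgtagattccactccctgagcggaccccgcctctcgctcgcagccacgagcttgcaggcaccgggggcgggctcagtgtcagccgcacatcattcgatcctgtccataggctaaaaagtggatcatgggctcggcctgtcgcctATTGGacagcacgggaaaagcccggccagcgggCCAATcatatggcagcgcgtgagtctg
Fads2, chr19:10101504-10101753, minus strand: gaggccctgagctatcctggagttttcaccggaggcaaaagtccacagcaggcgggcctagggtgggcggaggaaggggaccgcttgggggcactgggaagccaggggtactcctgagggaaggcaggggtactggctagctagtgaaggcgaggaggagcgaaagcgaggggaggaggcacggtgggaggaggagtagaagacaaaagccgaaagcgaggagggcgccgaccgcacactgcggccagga
In Hmgcs1 the sterol element begins 137 bases before the RefSeq start, and it was the only window of the 33 with these letters. GENCODE begins this gene later, at base 119690379, so the distance holds for the RefSeq start only. In Idi1 an E box begins 51 bases before the start and runs directly into a CCAAT on the other strand. The Mvd stretch holds CCAAT on both strands, 60 and 27 bases before the start, and the Fads2 stretch holds none of the 4 motifs.

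The libraries held 8813782 to 18677675 counts, of which 32525 to 86008 fell on the 32 genes. Replicate 2 of GFP at 16 h stood apart, with the lowest total and a scaling factor of 0.854 where the other 7 libraries had 1.01 to 1.03, and each comparison is given with and without it. Esr1, which reads the receptor part of the construct, was at 43.8 to 54.5 CPM (the count relative to the TMM-adjusted library total) in E47-ER cells and at most 0.932 CPM in GFP cells. Tcf3 and Id1 counts mix the native gene with the introduced one, and Id1 was at 59.9 to 81.4 CPM in E47-ER and 13.8 to 36.8 CPM in GFP cells. The 11 ILC2 marker genes all passed the filter and summed to 24222 to 30272 CPM in GFP and 19068 to 21508 CPM in E47-ER cells, with Il13, Il5 and Il2ra the most abundant. Their median log2 fold change, E47-ER against GFP, was -0.30 at 4 h and -0.43 at 16 h with all libraries. Without replicate 2 of GFP at 16 h the medians were -0.29 and -0.14. In the fit without that library, ILC2 markers were called in both directions at both times, more of them lower in E47-ER cells. With all libraries only Rora of the 11 was called at 16 h, against the direction of the medians. It was higher in E47-ER cells (151 and 158 CPM, against 78.6 and 75.4 CPM in GFP cells). T cell markers summed to 285 to 331 CPM in GFP cells and to 360 to 422 CPM in E47-ER cells. Most of each sum was Zap70, at 223 to 255 CPM in all 8 libraries. Cd4, Cd8a and Cd8b1 stayed under 1 CPM. Of the 7 tested, only Trbc1 and Trbc2 were called in the fit of all 8 libraries, higher at both times. Trbc1 was at 3.86 to 8.92 CPM in GFP and 17.3 to 28.7 CPM in E47-ER cells. Trbc2 was at 20.2 to 36.2 CPM and 59.5 to 111 CPM. B cell and myeloid markers summed to at most 14.2 CPM in any library. Thymic epithelial markers summed to 5.12 to 9.05 CPM in GFP and 10.3 to 22.7 CPM in E47-ER cells. Nearly all of this was Epcam, which was called higher at 16 h. The other 4, Foxn1, Krt5, Krt8 and Psmb11, were under 1 CPM in all libraries, with Foxn1 at 0. The part of these other markers in the results below was not tested.

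Per length of merged exons (TPM, which sums to the same total in every library), Scd2, which puts the double bond into stearate, had the highest mean level of the 32 genes at 353 TPM over the 8 libraries. This placed it above 97.3% of the tested genes. Its paralog Scd1 averaged 15.6 TPM. The fatty acid genes Acly (161 TPM) and Fasn (100.4 TPM) stood far above Acaca (9.47 TPM), which encodes the carboxylase between them. Of the regulators, Insig1 (141 TPM), Srebf2 (127 TPM) and Srebf1 (107 TPM) were high, while Scap and Insig2 were at 21.9 and 21.8 TPM. In the sterol branch the levels ran from 126 TPM for Cyp51, which removes a methyl group from lanosterol, to 9.08 TPM for Tm7sf2, a sterol reductase. Elovl6, an elongase, was lowest of all at 7.49 TPM. The ranges of neighbours in this order overlapped over the 8 libraries except between Scd2 and Acly and between Scd1 and Acaca. For example, Srebf2 ranged over 58.3 to 151 TPM and Mvd, next above it, over 94.8 to 176 TPM.

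At 4 h none of the 32 genes passed the edgeR test between E47-ER and GFP cells, with all 8 libraries or without replicate 2 of GFP at 16 h. Of the 32 genes, 25 had lower and 7 had higher fitted values in E47-ER cells, with a median log2 fold change of -0.07, while 50.9% of all tested genes were lower with a median of -0.0043. By edgeR's quasi-likelihood test with Benjamini-Hochberg adjustment 0 of the 32 were called at 4 h, as were 0.286% of all genes, and the smallest adjusted p was 0.895. DESeq2 also called 0, and 0 had an unadjusted edgeR p under 0.05, against 5.82% of all genes. For 30 of the 32 genes the 95% interval of the fold change lay within 2-fold in either direction, as it did for 71.2% of all genes. The 2 exceptions were Fdps and Scd1. Both E47-ER libraries lay above both GFP libraries for 1 gene, Ebp (3.12%, against 22.4% of all genes), and below them for 6, Lss, Hsd17b7, Srebf1, Acaca, Scd2 and Elovl6 (18.8%, against 22.9%).

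At 16 h the smallest p-values among the 32 genes belonged to Fads2 and Fads1, the desaturases of polyunsaturated fatty acids, and both E47-ER libraries held more of each than any GFP library. By edgeR's quasi-likelihood test with Benjamini-Hochberg adjustment 0 of the 32 were called with all 8 libraries, while 1.59% of all genes were. An unadjusted p under 0.05 was found for 4 genes (Fads2, Fads1, Dhcr7 and Pmvk), against 24% of all genes, and DESeq2 called 1, Fads2, with an adjusted p of 0.0111 (7.52% of all genes were called by DESeq2). The median log2 fold change was -0.08, with 19 of 32 genes lower, against -0.0057 and 50.4% over all genes. Both E47-ER libraries lay above both GFP libraries for 8 genes, Hsd17b7, Dhcr7, Insig1, Srebf2, Scap, Acly, Fads1 and Fads2 (25%, against 27.8% of all genes). They lay below for Pmvk and Scd1 (6.25%, against 26.6%). Without replicate 2 of GFP at 16 h, 3 of the 32 genes were called higher, Mvd, Fads2 and Fads1, and 0 lower. That is 9.38% of them, against 8.92% of all genes called in either direction and 4.39% called higher. Then 23 of 32 genes were higher, with a median of 0.14, while over all genes 49.4% were lower with a median of 0.0045. This fit rests on 1 GFP library at 16 h, a replicate 1, whose spread was taken from the other groups. In those groups replicate 2 was the higher library in 25 to 30 of the 32 genes, and its part in this shift was not tested.

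**Figure D1:**
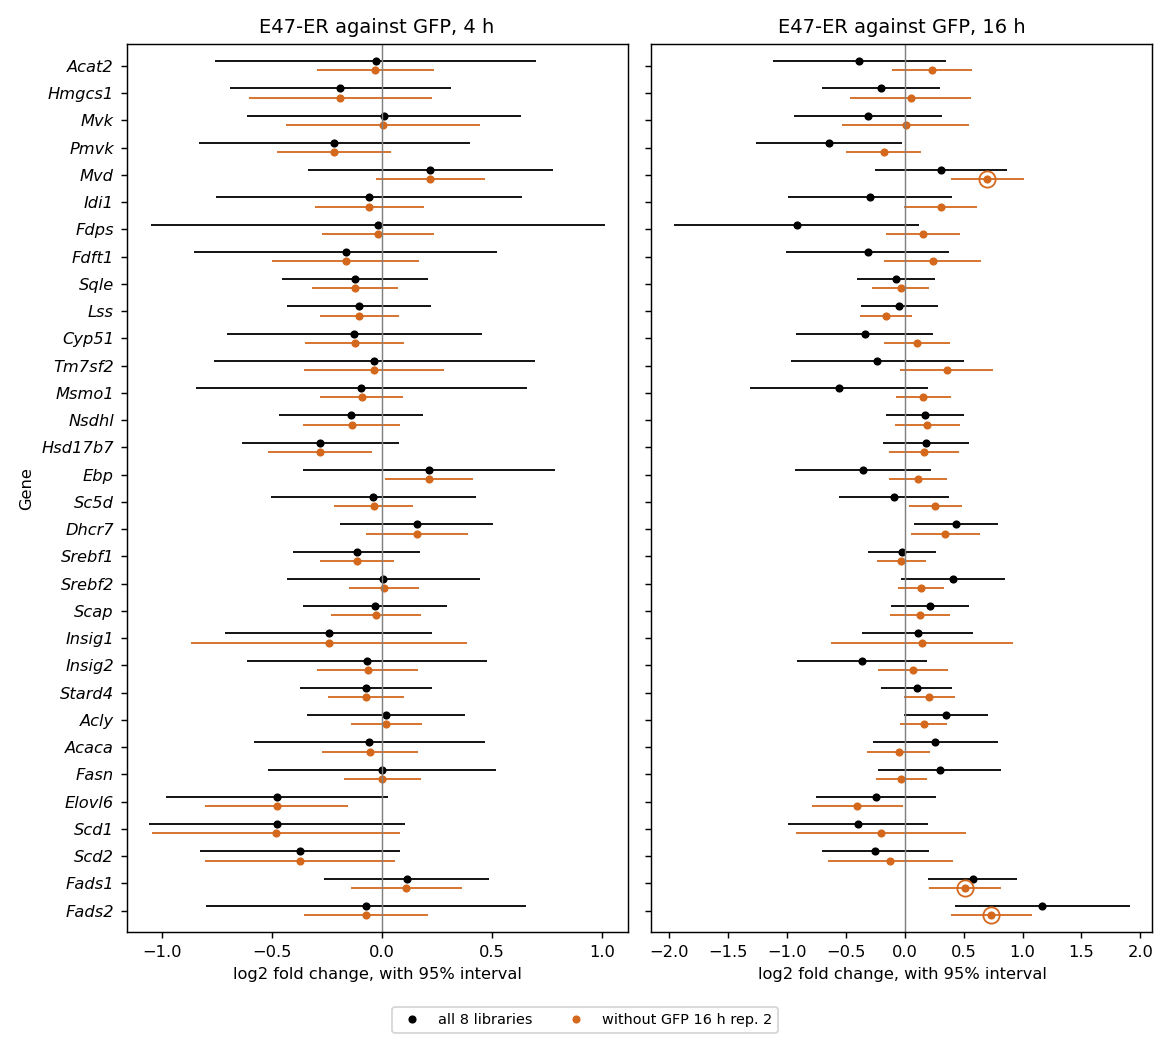
Log2 fold change of each of the 32 genes, E47-ER against GFP, at 4 h (left) and 16 h (right), with bars for the 95% interval; black points are from all 8 libraries, orange points from the fit without replicate 2 of GFP at 16 h, and rings mark adjusted p under 0.05. Most intervals cross 0, and the rings stand only at Mvd, Fads1 and Fads2 at 16 h without that library.

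Fads2, the delta-6 desaturase, was at 22.4 and 30.1 CPM in GFP and 26.2 and 23.7 CPM in E47-ER cells at 4 h (replicate 1 before replicate 2 here and below). At 16 h it was at 25.5 and 11.6 CPM in GFP and 38.4 and 46.7 CPM in E47-ER cells. The 4 h groups overlapped, both 16 h E47-ER libraries were above all 6 others, and replicate 2 of GFP at 16 h was the lowest of all. The 16 h log2 fold change was 1.17 ± 0.32 (SE, n = 2 and 2, edgeR adjusted p = 0.122), with a 95% interval of 0.42 to 1.91. Without the low library it was 0.74 ± 0.16 (edgeR adjusted p = 0.00624). In E47-ER cells Fads2 was higher at 16 h than at 4 h by 0.77 ± 0.31 (edgeR adjusted p = 0.981), and by 0.76 ± 0.13 (edgeR adjusted p = 0.00276) in the fit without that library, which is not itself part of this comparison but adds to the shared estimate of spread.

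Fads1, the delta-5 desaturase, lies near Fads2 on chromosome 19 (Fads1 10182888 to 10196877, plus strand, and Fads2 10062765 to 10101746, minus strand, GRCm38). It was at 24.7 and 31.6 CPM in GFP and 28.7 and 32.2 CPM in E47-ER cells at 4 h, and at 30.4 and 28.0 CPM in GFP and 41.0 and 46.2 CPM in E47-ER cells at 16 h. The pattern was that of Fads2 without the low value: 6 libraries lay together and both E47-ER libraries at 16 h stood above them. The 16 h log2 fold change was 0.58 ± 0.16 (edgeR adjusted p = 0.127), and 0.51 ± 0.15 (edgeR adjusted p = 0.0303) in the fit that leaves out replicate 2 of GFP at 16 h. From 4 h to 16 h in E47-ER cells the change was 0.52 ± 0.16 (edgeR adjusted p = 0.962), and 0.51 ± 0.12 (edgeR adjusted p = 0.0213) in that fit.

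Mvd encodes the decarboxylase that makes isopentenyl diphosphate. It was at 64.3 and 81.0 CPM in GFP and 78.8 and 90.4 CPM in E47-ER cells at 4 h, and at 61.1 and 101 CPM in GFP and 89.9 and 110 CPM in E47-ER cells at 16 h. Groups overlapped at both times, and in every group replicate 2 was the higher library. The 16 h log2 fold change was 0.31 (95% interval -0.25 to 0.87, edgeR adjusted p = 0.435). When replicate 2 of GFP at 16 h, the higher of the pair, was left out it was 0.70 ± 0.15 (edgeR adjusted p = 0.00606). Among the 19 settings tried, Mvd was called at 16 h only where that library was left out.

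**Figure D2:**
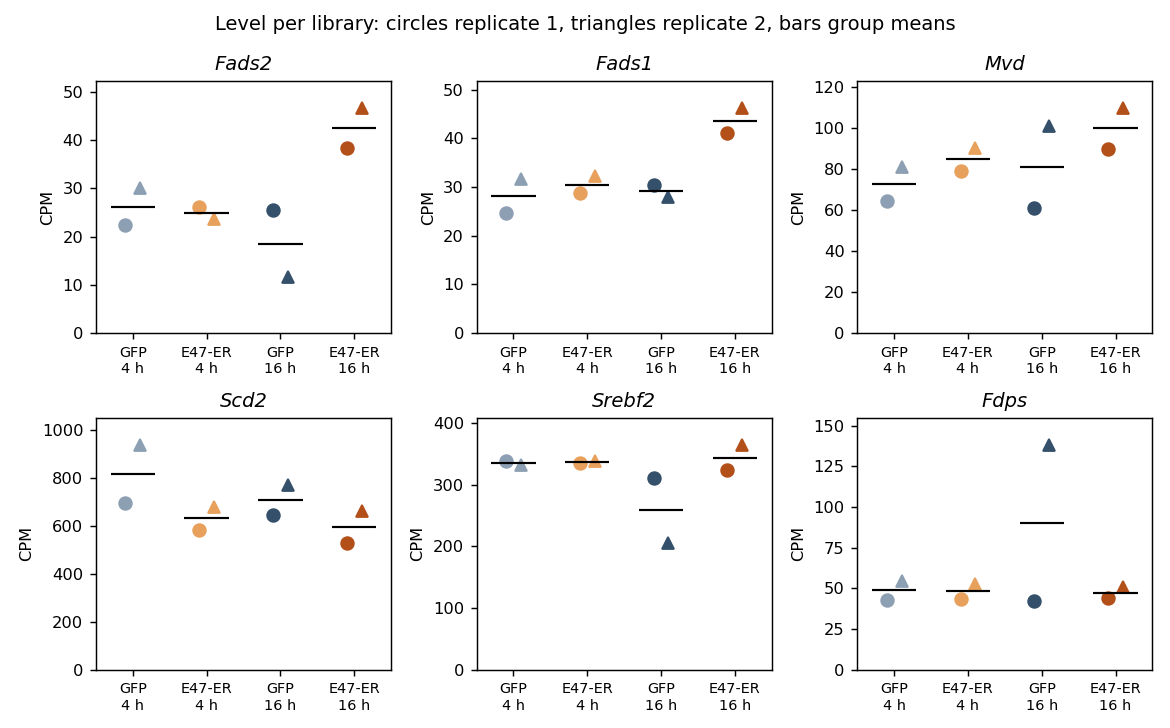
Level of 6 genes in CPM (vertical axis, from 0) in each library by group (horizontal axis); circles are replicate 1, triangles replicate 2 and bars the group means. Fads2 and Fads1 are highest in both E47-ER libraries at 16 h, and replicate 2 of GFP at 16 h is apart in Fads2, Srebf2 and Fdps.

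The other genes of the mevalonate steps were Acat2, Hmgcs1, Mvk, Pmvk, Idi1 and Fdps. Hmgcs1, the synthase that makes HMG-CoA, was at 196 and 275 CPM in GFP and 186 and 226 CPM in E47-ER cells at 4 h, and at 199 and 277 CPM in GFP and 197 and 217 CPM in E47-ER cells at 16 h. Its groups overlapped at both times, and the spread within each GFP group was wider than the distance between the groups. Its log2 fold changes were -0.19 ± 0.22 at 4 h and -0.20 ± 0.22 at 16 h. Over the 7 mevalonate genes the median was -0.03 at 4 h and -0.31 at 16 h with all libraries, and 0.15 at 16 h without replicate 2 of GFP, with 6 of 7 genes higher. The lowest value at 16 h belonged to Fdps, farnesyl diphosphate synthase, at -0.92 ± 0.45 (edgeR adjusted p = 0.244). Fdps was at 138 CPM in replicate 2 of GFP at 16 h and at 42.3 to 54.4 CPM in the other 7 libraries, and without that library its 16 h value was 0.15. Pmvk, phosphomevalonate kinase, was at 54.2 CPM in that library and at 21.7 to 31.4 CPM elsewhere, Idi1 at 235 against 115 to 156 CPM, Acat2 at 66.8 against 31.0 to 43.5 CPM, and Mvk at 37.7 against 18.6 to 27.5 CPM.

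The 11 genes from squalene to cholesterol gave medians of -0.11 at 4 h and -0.09 at 16 h, and 0.16 at 16 h without replicate 2 of GFP. Sqle, squalene epoxidase, was at 101 and 117 CPM in GFP and 93.3 and 107 CPM in E47-ER cells at 4 h, and at 99.6 and 107 CPM in GFP and 91.2 and 104 CPM in E47-ER cells at 16 h. All 8 values lay close together and the groups overlapped at both times, with log2 fold changes of -0.12 ± 0.14 and -0.08 ± 0.14. Dhcr7, a reductase that acts late in the pathway, was at 28.6 and 25.3 CPM in GFP and 33.5 and 39.5 CPM in E47-ER cells at 16 h. These groups did not overlap, and the log2 fold change was 0.43 ± 0.15 (edgeR adjusted p = 0.164). Ebp, a sterol isomerase, was higher in both E47-ER libraries at 4 h (84.0 and 93.1 CPM, against 69.0 and 83.8 CPM), by 0.21 with a 95% interval of -0.36 to 0.79. Lss (137 and 141 against 148 and 152 CPM) and Hsd17b7 (36.2 and 40.7 against 42.0 and 51.3 CPM) were lower there. In replicate 2 of GFP at 16 h Msmo1 was at 260 CPM, Cyp51 at 304, Fdft1 at 130, Tm7sf2 at 24.1, Ebp at 151 and Sc5d at 117 CPM, each the highest of the 8 libraries. Nsdhl stayed between 39.4 and 50.0 CPM in all 8.

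No regulator passed the test in any comparison of E47-ER with GFP cells, with or without replicate 2 of GFP at 16 h. Srebf1 was at 227 and 234 CPM in GFP and 207 and 219 CPM in E47-ER cells at 4 h, and at 209 and 209 CPM in GFP and 190 and 220 CPM in E47-ER cells at 16 h. Both E47-ER values were below both GFP values at 4 h (log2 fold change -0.11 ± 0.13), and the 16 h groups overlapped. Srebf2 was at 338 and 332 CPM in GFP and 335 and 339 CPM in E47-ER cells at 4 h, and at 311 and 206 CPM in GFP and 323 and 364 CPM in E47-ER cells at 16 h. It was level in 7 libraries and low in replicate 2 of GFP at 16 h, and its 16 h log2 fold change was 0.41 ± 0.19 (edgeR adjusted p = 0.228) with that library and 0.14 without. Scap was at 62.8 and 54.1 CPM in GFP and 57.0 and 57.4 CPM in E47-ER cells at 4 h, and at 55.8 and 49.4 CPM in GFP and 56.8 and 65.7 CPM in E47-ER cells at 16 h. Both E47-ER libraries at 16 h were above both GFP libraries, although replicate 1 of the E47-ER group exceeded replicate 1 of GFP by little.

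Insig1, itself a target of SREBP, was at 135 and 202 CPM in GFP and 126 and 159 CPM in E47-ER cells at 4 h, and at 145 and 154 CPM in GFP and 155 and 168 CPM in E47-ER cells at 16 h. Replicate 2 was the higher library in every group, and its 4 h and 16 h log2 fold changes were -0.24 ± 0.20 and 0.11 (95% interval -0.36 to 0.58). Insig2 was at 30.03 and 26.6 CPM in GFP and 27.7 and 26.2 CPM in E47-ER cells at 4 h, and at 22.1 and 38.6 CPM in GFP and 24.0 and 22.6 CPM in E47-ER cells at 16 h. Both groups overlapped at each time, with the highest value in replicate 2 of GFP at 16 h. Stard4, a cytosolic sterol carrier, ranged over 88.1 to 111 CPM.

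Acly, Acaca and Fasn, which turn citrate into palmitate, had log2 fold changes between -0.06 and 0.02 at 4 h, the narrowest range of the 5 roles. Fasn, fatty acid synthase, was at 407 and 418 CPM in GFP and 416 and 408 CPM in E47-ER cells at 4 h, and at 399 and 240 CPM in GFP and 354 and 432 CPM in E47-ER cells at 16 h. Acaca was at 61.8 and 63.1 CPM in GFP and 61.6 and 58.4 CPM in E47-ER cells at 4 h, and at 58.4 and 35.6 CPM in GFP and 48.9 and 64.2 CPM in E47-ER cells at 16 h. Both genes were low in replicate 2 of GFP at 16 h, and their 16 h groups overlapped. The 16 h values of all 3 genes were higher in E47-ER cells with all libraries (median 0.30), and the median was -0.03 without that library. Acly was at 216 to 330 CPM.

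In the elongation and desaturation genes the 4 h median was -0.37, with 4 of 5 genes lower in E47-ER cells. Scd2 was at 696 and 937 CPM in GFP and 584 and 677 CPM in E47-ER cells at 4 h, and at 645 and 770 CPM in GFP and 527 and 663 CPM in E47-ER cells at 16 h. The E47-ER libraries were both below the GFP libraries at 4 h, and the 16 h groups overlapped. The log2 fold changes were -0.37 ± 0.20 at 4 h (edgeR adjusted p = 0.975) and -0.25 at 16 h. Scd1 was at 26.0 and 44.7 CPM in GFP and 24.1 and 26.8 CPM in E47-ER cells at 4 h, and at 24.0 and 31.6 CPM in GFP and 20.5 and 21.4 CPM in E47-ER cells at 16 h. The 16 h E47-ER libraries were its 2 lowest, with log2 fold changes of -0.48 ± 0.25 at 4 h and -0.40 ± 0.26 at 16 h. Elovl6, which lengthens palmitate, was at 15.6 and 23.1 CPM in GFP and 14.7 and 13.2 CPM in E47-ER cells at 4 h. These groups did not overlap, and the log2 fold change of -0.48 ± 0.22 had an edgeR adjusted p of 0.895 with 8 libraries and of 0.0963 with 7. Scd1 and Scd2 are close paralogs whose shared reads the counting could have divided between them.

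The difference between the effects of E47-ER at 16 h and at 4 h was called for none of the 32 genes with all 8 libraries or without replicate 2 of GFP at 16 h, and for Fads2 with 8 libraries and no filter on low counts. The edgeR test of that difference called 0 of all tested genes (0%) with 8 libraries and 0.0424% without replicate 2 of GFP at 16 h, and the smallest adjusted p among the 32 genes was 0.699 and 0.237. Unadjusted p was under 0.05 for 1 gene with 8 libraries (4.92% of all genes) and for 6 genes with 7 (7.83% of all genes), and DESeq2 called 0 with 8 libraries. The difference for Fads2 was 1.24 ± 0.45 with all libraries and 0.81 ± 0.21 without the library. Without it 28 of the 32 differences were above 0, with a median of 0.23, against 12.5% below 0 here and 49.5% below 0 over all genes. All 32 differences rest on the same 7 libraries, among them the lone GFP library at 16 h.

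Between 4 h and 16 h in GFP cells 0 of the 32 genes were called by edgeR, as were 0% of all genes with 8 libraries and 0.00707% without replicate 2 of GFP at 16 h. Unadjusted p was under 0.05 for 1 gene, Ebp, with all libraries (9.07% of all genes) and for 5 genes without that library (6.23% of all genes), and DESeq2 called 0. In E47-ER cells 0 of the 32 were called with all libraries, as were 0.0147% of all genes, with 2 genes (Fads1 and Fads2) at an unadjusted p under 0.05 (5.09% of all genes) and 0 called by DESeq2. In the fit without replicate 2 of GFP at 16 h, Fads1 and Fads2 were called higher at 16 h (6.25% of the 32), against 3.08% of all genes called and 1.74% called higher. At 4 h that fit called 0 of the 32, with 3 genes (Elovl6, Hsd17b7 and Ebp) at an unadjusted p under 0.05 (16.1% of all genes), and called 4.33% of all genes. DESeq2 was not run without that library. The time comparisons use the same libraries as the comparisons of E47-ER with GFP, so the values of Fads1 and Fads2 at 16 h enter both.

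Replicate 2 of GFP at 16 h was apart from the other libraries in many of the 32 genes. Relative to the mean of the other 7 libraries on the log2 scale it was higher in Fdps (1.55), Msmo1 (1.04), Acat2 (0.87) and Tm7sf2 (0.87), and lower in Fads2 (-1.33), Fasn (-0.75), Acaca (-0.74) and Srebf2 (-0.70). In all, 18 of the 32 genes were higher there and 14 lower. Across the 32 genes these deviations were lower at greater merged exon length, with a Spearman correlation of -0.57 and a Pearson correlation of -0.51 with log2 length, and across 13627 tested genes the Spearman correlation was -0.41. These are descriptions over genes of 1 library, which share its depth and scaling. The 3408 shortest tested genes (up to 2373 bases) had a median deviation of 0.57 and the 3408 longest (from 6385 bases) one of -0.34. Fads2, at 3295 bases, was low in that library although it is shorter than the median tested gene (4047 bases). With a trend on length removed from every library, the edgeR calls among the 32 genes at 16 h again numbered 0.

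**Figure D3:**
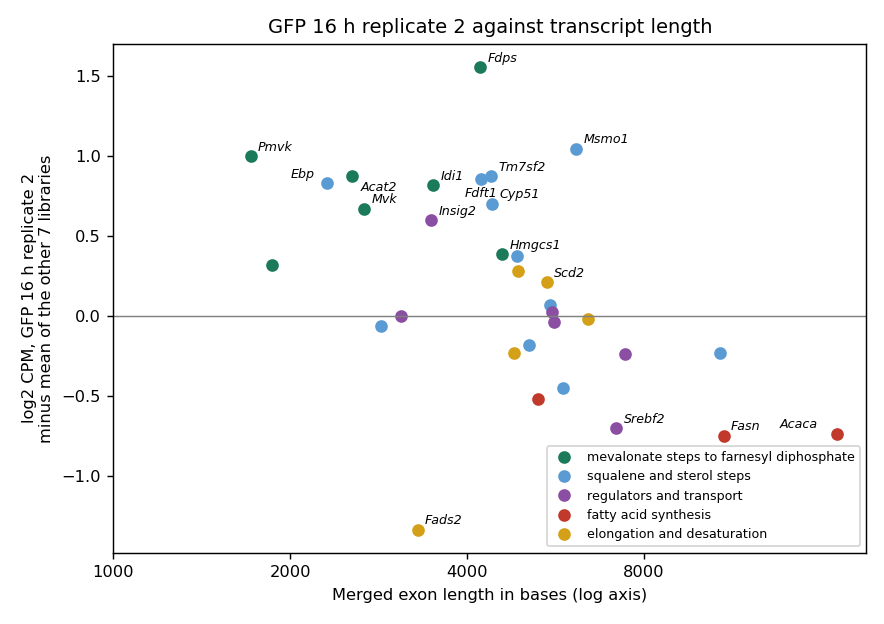
Deviation of replicate 2 of GFP at 16 h from the mean of the other 7 libraries (vertical axis, log2 CPM) against merged exon length in bases (horizontal log axis), each point a gene coloured by role. Short genes such as Pmvk lie above 0 and long genes such as Fasn and Acaca below it, with Fdps (1.55) and Fads2 (-1.33) at the ends.

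The enzymes of cholesterol synthesis differed between the replicates of a group in 1 direction. Of the 18 mevalonate and sterol enzymes, replicate 2 exceeded replicate 1 in 18 in GFP at 4 h, 17 in E47-ER at 4 h, 15 in GFP at 16 h and 17 in E47-ER at 16 h. Their median excess was 0.28, 0.23, 0.76 and 0.19 on the log2 scale. Over all 32 genes replicate 2 was the higher in 29, 25, 21 and 30, while over all tested genes it was the higher in 47.7 to 51.8%, with medians between -0.01 and 0.01. In the 3 groups other than GFP at 16 h this median excess, 0.19 to 0.28, was larger in size than the median 4 h log2 fold change of the mevalonate genes (-0.03) or the sterol genes (-0.11). Nothing in the labels says what replicates with the same number share. Leaving out replicate 2 of GFP at 16 h keeps only a replicate 1 library in that group, set against both replicates of E47-ER. Among libraries of replicate 1 alone at 16 h, Mvd was at 89.9 CPM in E47-ER and 61.1 CPM in GFP cells. Fads2 was at 38.4 and 25.5 CPM there, and Fads1 at 41.0 and 30.4 CPM. Among libraries of replicate 2 alone, Mvd was at 110 and 101 CPM, Fads2 at 46.7 and 11.6 CPM, and Fads1 at 46.2 and 28.0 CPM. Each of these sets 1 library against 1, and the replicate numbers were not taken to pair the samples.

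**Figure D4:**
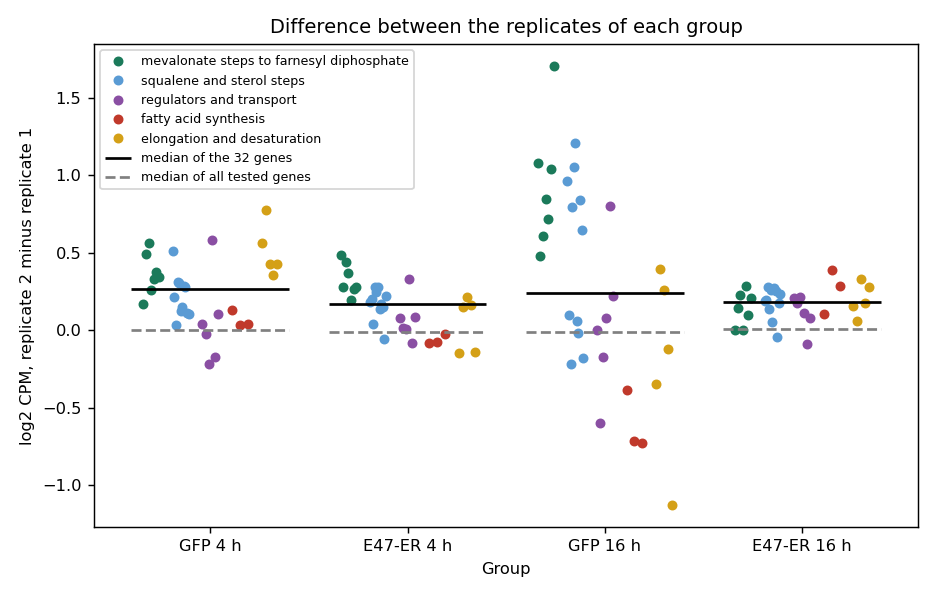
Difference of replicate 2 from replicate 1 in log2 CPM (vertical axis) for each of the 32 genes, coloured by role, in each group (horizontal axis); black lines are medians of the 32 genes and dashed lines medians of all tested genes. Most mevalonate and sterol genes lie above 0 in all 4 groups, and the spread is widest in GFP at 16 h.

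**Figure D5:**
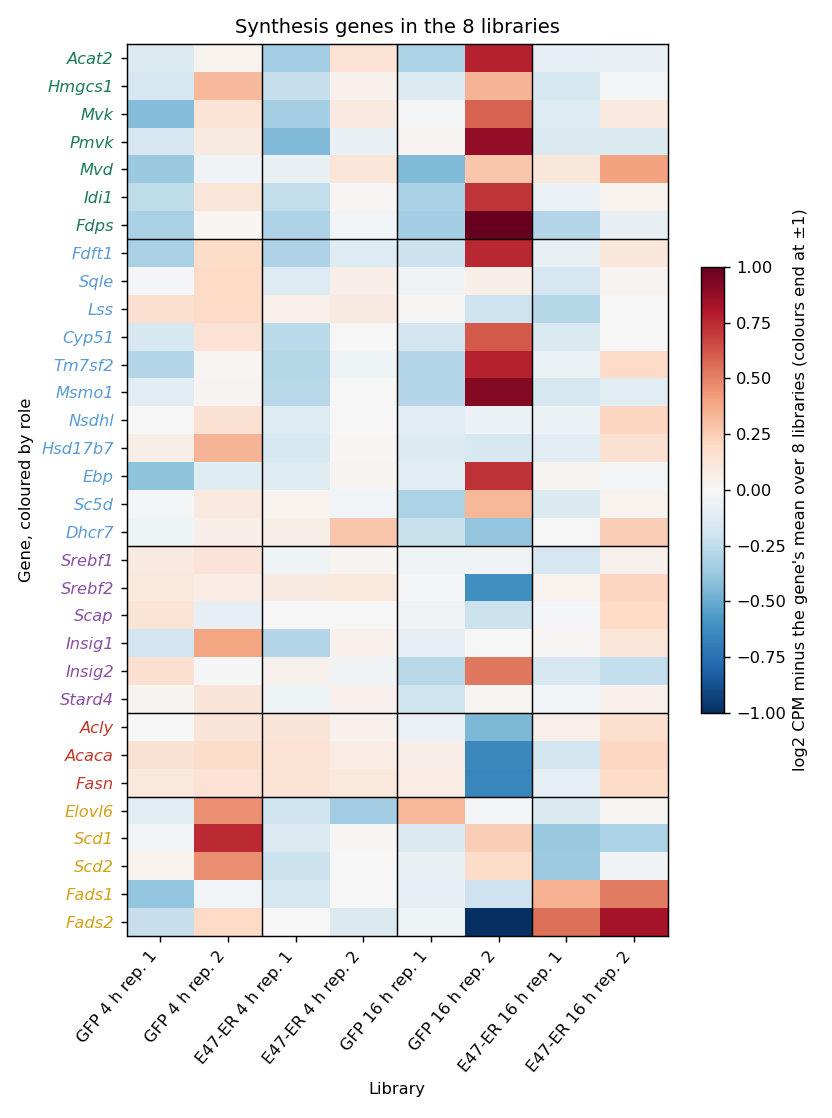
Level of each of the 32 genes (vertical axis, grouped and coloured by role) in each library (horizontal axis) as log2 CPM minus the gene's mean over 8 libraries, with red for higher and blue for lower. Replicate 2 of GFP at 16 h is the darkest column, and Fads1 and Fads2 are red in both E47-ER libraries at 16 h.

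Genes around the pathway were taken from 5 further lists. With all 8 libraries edgeR called 0 of their 77 tested genes in each of the 5 comparisons, with 2 at an unadjusted p under 0.05 at 4 h (5.82% of all genes) and 14 at 16 h (24% of all genes), 2 for the difference of the times, 5 over time in GFP and 3 over time in E47-ER cells. DESeq2 called 6 of the 77 at 16 h (Abca1, Vldlr, Gramd1b, Rabggtb, Cpt1a and Etfb), against 7.52% of all genes, and 0 in the other comparisons. Among 15 tested genes of cholesterol uptake, efflux, transport and esterification, Abca1, which exports cholesterol to lipoproteins, had the smallest p at both times. Abca1 was at 29.9 and 29.8 CPM in GFP and 20.5 and 18.5 CPM in E47-ER cells at 4 h, and at 24.9 and 23.2 CPM in GFP and 12.3 and 15.3 CPM in E47-ER cells at 16 h. Its groups did not overlap at either time, and the log2 fold changes were -0.61 ± 0.16 (edgeR adjusted p = 0.354) and -0.80 ± 0.16 (edgeR adjusted p = 0.0560). In the fit that leaves out replicate 2 of GFP at 16 h, Abca1 fell by 0.61 at 4 h (edgeR adjusted p = 0.00322) and by 0.86 at 16 h (edgeR adjusted p = 6.2e-04). That fit also called genes of this list at 16 h, 3 higher and 2 lower of 15 with Abca1 counted, against 8.92% of all genes. Scarb1, a lipoprotein receptor, was lower (-0.58), and Gramd1b, a sterol carrier between membranes, was higher (0.54). Vldlr, a lipoprotein receptor, was higher as well (0.84), and so was Gramd1a (0.35), which was named after its values were seen.

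Of 13 tested genes of SREBP processing and sterol-regulated degradation, only Mylip was called, in the fit without replicate 2 of GFP at 16 h (0.57 at 16 h, edgeR adjusted p = 0.0354). Mylip encodes a ubiquitin ligase for lipoprotein receptors. With all libraries Mylip and the oxysterol receptor gene Nr1h2 had the smallest p at 16 h, with log2 fold changes of 0.40 ± 0.17 and 0.28 ± 0.12. Of 14 isoprenoid genes, Rabggta, a subunit of the Rab prenyltransferase, was called higher at 4 h without that library (0.54, edgeR adjusted p = 0.00566). Of 20 tested genes of other fatty acid synthesis and activation, Me1, malic enzyme, was called higher (0.27) and Acsl4, an acyl-CoA ligase, lower (-0.29) at 4 h without it. Of 15 tested genes of fatty acid oxidation, Cpt1a, which admits fatty acids to mitochondria, was called higher at 16 h without it (0.42, edgeR adjusted p = 0.0188). The share of all genes called by that fit was 4.33% at 4 h and 8.92% at 16 h. In E47-ER cells from 4 h to 16 h, where 3.08% of all genes were called, the same fit called Abca1 (-0.51) and Abcg1 (-0.47) lower and Vldlr (0.70) and Gramd1b (0.41) higher.

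Some counts may hold reads of a neighbour. The strand setting of the counting is not given in the sources used here, and no strand setting would separate neighbours on the same strand. Fdft1 shares 774 exon bases with Ctsb on the other strand, Fdps shares 1124 with Gm43738 on the same strand, and Tm7sf2 shares 532 with Vps51 on the same strand. Scd2 and Srebf1 each hold a microRNA gene in 61 and 66 exon bases. Cyp51, Hmgcs1, Idi1, Lss, Scap, Srebf1 and Elovl6 share 34 to 985 exon bases with genes on the other strand, so their values are uncertain to that extent. Fads1, Fads2 and Mvd share none with an annotated gene.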

How the data were processed

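Total RNA of 8 libraries was measured by bulk RNA sequencing. The deposited values are raw counts made by the authors, 1 whole number per Ensembl gene and library. The submitters' processing notes name mm10 and DESeq2 without a role. For the aligner, counter, strandedness and gene models, a name is not given in the sources used here. All 8 columns were used. Of 50686 IDs, 50462 matched GENCODE M21 (GRCm38), which gave symbols, coordinates and merged exon lengths. The 32 genes and all lists were chosen with earlier results of these data known.

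The model was edgeR 4.0.16 (limma 3.58.1, R 4.3.3), with filterByExpr at minimum count 10, TMM scaling and a robust quasi-likelihood fit of the 4 group means over all libraries. P-values are two-sided, with Benjamini-Hochberg adjustment over every tested gene, and a call is an adjusted p under 0.05. The SE is the size of the log2 fold change over √F. The 95% intervals use the t distribution with the fit's degrees of freedom. CPM uses TMM-adjusted totals, log2 CPM adds a prior count of 2, and TPM divides counts by merged exon length. The scripts were tested on simulated data.

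Per-library values are given for genes called in any comparison, with all libraries or without replicate 2 of GFP at 16 h, and for Srebf1, Srebf2, Scap, Insig1, Insig2, Sqle, Hmgcs1, Fasn, Acaca, Scd1 and Scd2. Other genes are given by ranges. From each further list up to 4 called genes with the smallest p are named, or the 2 with the smallest p where none was called. Dhcr7, Ebp, Lss, Hsd17b7, Elovl6 and Fdps were singled out after their values were seen. The alternatives tried were other scaling (RLE, or totals alone), DESeq2 1.42.0, other count filters, a dispersion that is not robust, a fit per time point, replicate blocks, a length trend taken out as an offset, and each library left out. Plots were made in matplotlib 3.10.9 (Python 3.11.15).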

Additional observations from a re-analysis of the deposited data

How the results depend on the processing

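Across 19 settings (18 planned, 1 added after seeing the data) the 32 genes gave 2944 values, of which 2874 kept their side of the threshold. The other 70 passed it, with the same sign as in the main fit. Most of the 70 came from leaving out replicate 1 of GFP at 16 h. The main fit called 0 of the 32 in every comparison, so there was no call to lose or reverse. Of the uncalled values, 231 changed sign. With library totals, 19 genes in all were called at 4 h and 0 over time in E47-ER cells, and the median of the 32 genes at 16 h was 0.060. DESeq2 called 109 genes at 4 h, 942 at 16 h, among them 1 of the 32 (Fads2), and 20 over time in E47-ER cells. Without a filter 165 genes were called at 4 h, 1816 at 16 h (2 of the 32, Fads1 and Fads2), 53 for the difference of the times (1 of the 32, Fads2), 305 over time in GFP and 53 in E47-ER cells. A minimum count of 30 left 0 over time in E47-ER cells, the length trend gave 66 genes at 4 h, and fits per time point gave 442 at 4 h and 6 at 16 h. The causes were not tested.

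The replicate numbers were not taken to pair the samples: the differences of replicate 2 from replicate 1 correlated over all genes at -0.09 to 0.20 between groups, highest for E47-ER at 4 h with GFP at 16 h, and over the 32 genes at -0.47 to 0.66. The labels do not say what a number shares. A replicate block within times called 11 genes at 4 h, 54 at 16 h and 0 over time in E47-ER cells, and a block across times called 0 over time in E47-ER cells; both called 0 of the 32. The added setting, a block across times without replicate 2 of GFP at 16 h, called 835 genes at 4 h (1 of the 32, Scd2 at -0.36), 1241 at 16 h (2 of the 32, Mvd and Fads2, with a median of 0.066; Fads1 had an edgeR adjusted p of 0.0644), 9 for the difference, 1 over time in GFP and 708 in E47-ER cells (2 of the 32, Fads1 and Fads2).

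Leaving out 1 library at a time gave 1 to 619 genes at 4 h, 15 to 7022 at 16 h, 0 to 5124 for the difference, 0 to 6034 over time in GFP and 0 to 440 in E47-ER cells. Of the 32, it called 0 at 4 h, 0 to 19 at 16 h, 0 to 16 for the difference, 0 to 19 over time in GFP and 0 to 2 in E47-ER cells. The median of the 32 was -0.18 to 0.14 at 16 h and -0.069 to 0.23 for the difference. The highest counts at 16 h came without replicate 1 of GFP at 16 h, which leaves the library that stands apart alone in its group. Each group has 2 libraries, and the smallest difference these can show was not measured.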
